A study of Danio rerio with 6 samples.

Results

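Glycosyltransferases and nucleotide sugar carriers were examined in the enveloping layer (EVL), the outer epithelial sheet of the early zebrafish embryo, against the embryo's other cells. The set held every gene of the deposited tables whose name begins with galnt, b3gnt, b3galt, b4galt, st3gal, st6gal, st8sia, fut followed by a digit, gcnt, chst or slc35. That gave 119 of 31953 genes, in 9 classes, and each class is described below by its place in the building of a sugar chain.

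RNA came from GFP-positive cells (EVL cells below) in 3 libraries and GFP-negative cells (non-EVL cells below) in 3 libraries, numbered as replicates 1, 2 and 3 in each group. Every library was made from embryos of the strain Tg(krt18:krt18-GFP), which carry a GFP-tagged keratin 18 under the krt18 promoter, so the GFP-negative cells carry the same transgene. Embryos were 6 hpf (hours after fertilisation) old, pooled and given no treatment that the labels name, with about 1500 of them and 10000 sorted GFP-positive cells named in the labels, which do not say how many GFP-negative cells were taken. The labels do not tie the libraries of a group to separate clutches or sorts. The spread that p-values rest on is that of the libraries at hand and may be technical.

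Sugar chains on secreted and membrane proteins and on lipids are built in the secretory pathway by enzymes that each add 1 sugar from an activated donor. The donors, such as UDP-GlcNAc or GDP-fucose, are made mostly in the cytosol and enter the Golgi and endoplasmic reticulum through carriers of the SLC35 family. A mucin-type chain starts with GalNAc on a serine or threonine, is branched and lengthened with galactose and GlcNAc, and is capped with sialic acid, fucose or sulfate. Surface epithelia are known for glycan-rich coats, in which such chains are abundant.

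Gene-assigned reads numbered 32.2M to 38.3M in the GFP-positive libraries and 36.7M to 46.1M in the GFP-negative libraries, and 1 gene alone took 30.1% to 42.7% of them. All values below are normalised reads, which are reads divided by the size factor of the library. They are not per length, so they compare 1 gene between groups and not different genes. A gene was tested where at least 3 libraries had a value of at least 10, and it was called where limma on log2(value + 1) gave a Benjamini-Hochberg adjusted p under 0.05 over all 15971 genes tested. Log2 fold changes are GFP-positive over GFP-negative on that scale, which understates the change of genes with low values.

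The sort was checked with marker lists. All 15 EVL markers were called higher in GFP-positive libraries, with summed levels of 738220 to 2396000 in GFP-positive libraries and 40108 to 57805 in GFP-negative libraries, and part of the krt18 reads can come from the transgene. Markers of other cells moved with the groups as well. Of the dorsal forerunner and endoderm markers, 4 of 7 tested (foxj1a, sox32, sox17 and foxa2) were higher in GFP-positive libraries, and the whole list of 8 summed to 34272 to 67171 in GFP-positive libraries and 12461 to 17376 in GFP-negative libraries. Called lower in GFP-positive libraries were 3 of 11 tested markers of deep ectoderm, 3 of 10 of germ cells, 1 of 13 of mesoderm and margin and 1 of 5 of the yolk syncytial layer. Estimates above 0, none of them called, included the deep ectoderm genes tfap2a, whose GFP-positive libraries were all above its GFP-negative ones (log2 fold change 1.08), and otx1a (0.12), the germ cell gene buc (0.41) and the mesoderm genes noto (0.30), tbx6 (0.21) and fgf8a (0.09). The summed germ cell list stood at 2036 to 4422 in GFP-positive libraries and 5095 to 7970 in GFP-negative libraries, and the deep ectoderm list at 48375 to 65244 in GFP-positive libraries and 71945 to 82561 in GFP-negative libraries. The mesoderm and margin list summed to 34982 to 70109 in GFP-positive libraries and 70762 to 77726 in GFP-negative libraries. The yolk syncytial layer list summed to 45370 to 59287 in GFP-positive libraries and 78152 to 93607 in GFP-negative libraries, but almost all of these reads were of apoeb, the only marker of that list called (log2 fold change -0.70). Its other tested markers, mxtx1 (1.42), hnf4a (0.50), camsap2a (0.06) and apoa1b (-0.72), were not called, and mxtx2, slc26a1 and apobb.1 were under the test's minimum. No marker of these lists was at 0 in every library, and their part in the results below was not tested. In bulk samples such as these, fewer cells of a type and less RNA per cell cannot be told apart.

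Of the 119 genes, 83 passed the minimum and 36 did not. Among the 83, 17 (20.5%) were called higher in GFP-positive cells, where 8.80% of all genes tested were. Only 1 gene (1.20%) was called lower, where 0.676% of all genes were, and 65 were called in neither direction, while 9.47% of all genes were called in 1 or the other. The median log2 fold change was 0.12 over the 83 genes and -0.06 over all genes. It moved to -0.18 with libraries scaled to their total reads, where the median of all genes moved to -0.36. That scaling also gave 16 genes higher and 4 lower, against 17 and 1 here, and for all genes 1317 higher and 1191 lower, against 1405 and 108 here. The larger changes lay mostly on 1 side, with 25 genes (30.1%) at least 2-fold higher and 5 (6.02%) at least 2-fold lower, where the shares among all genes were 16.6% and 3.76%. In 25 genes every GFP-positive library was above every GFP-negative one, and in 9 every one was below, where 17.4% and 13.5% of all genes tested had such a split.

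**Figure D1:**
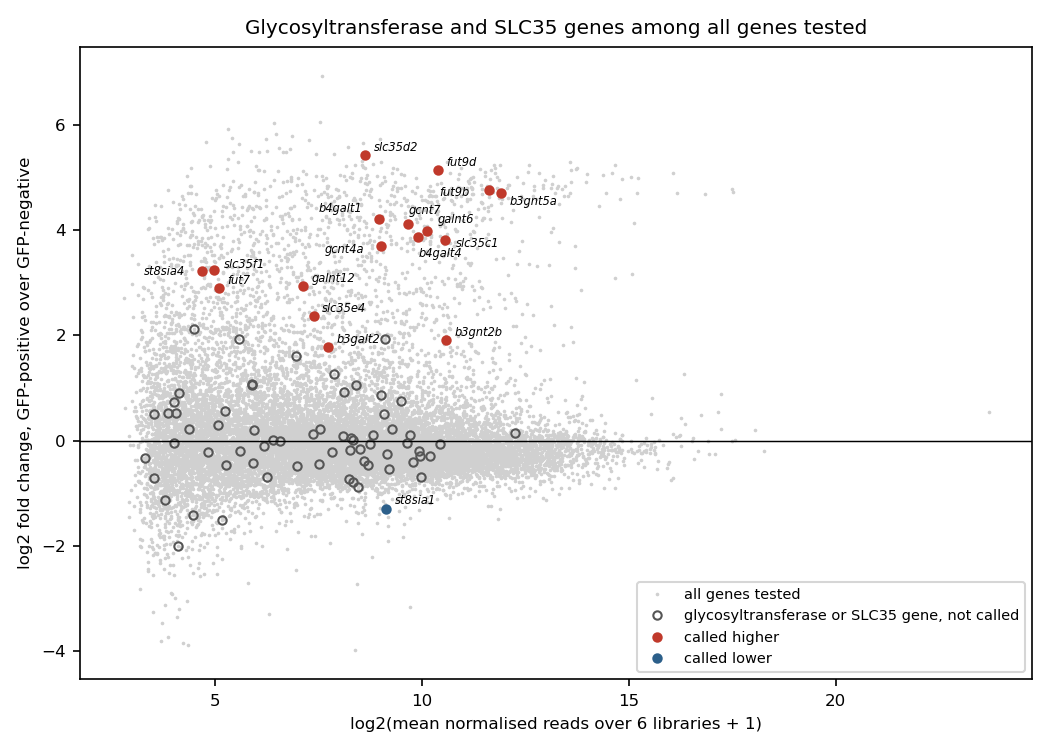
Log2 fold change of GFP-positive over GFP-negative cells (vertical) against the log2 of the mean normalised reads plus 1 over 6 libraries (horizontal), for all 15971 genes tested (grey), the 17 listed genes called higher (red), the 1 called lower (blue) and the 65 not called (open circles). The called genes stand between 1.78 and 5.42 above the zero line, except st8sia1 at -1.29, and most open circles lie near it.

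**Figure D2:**
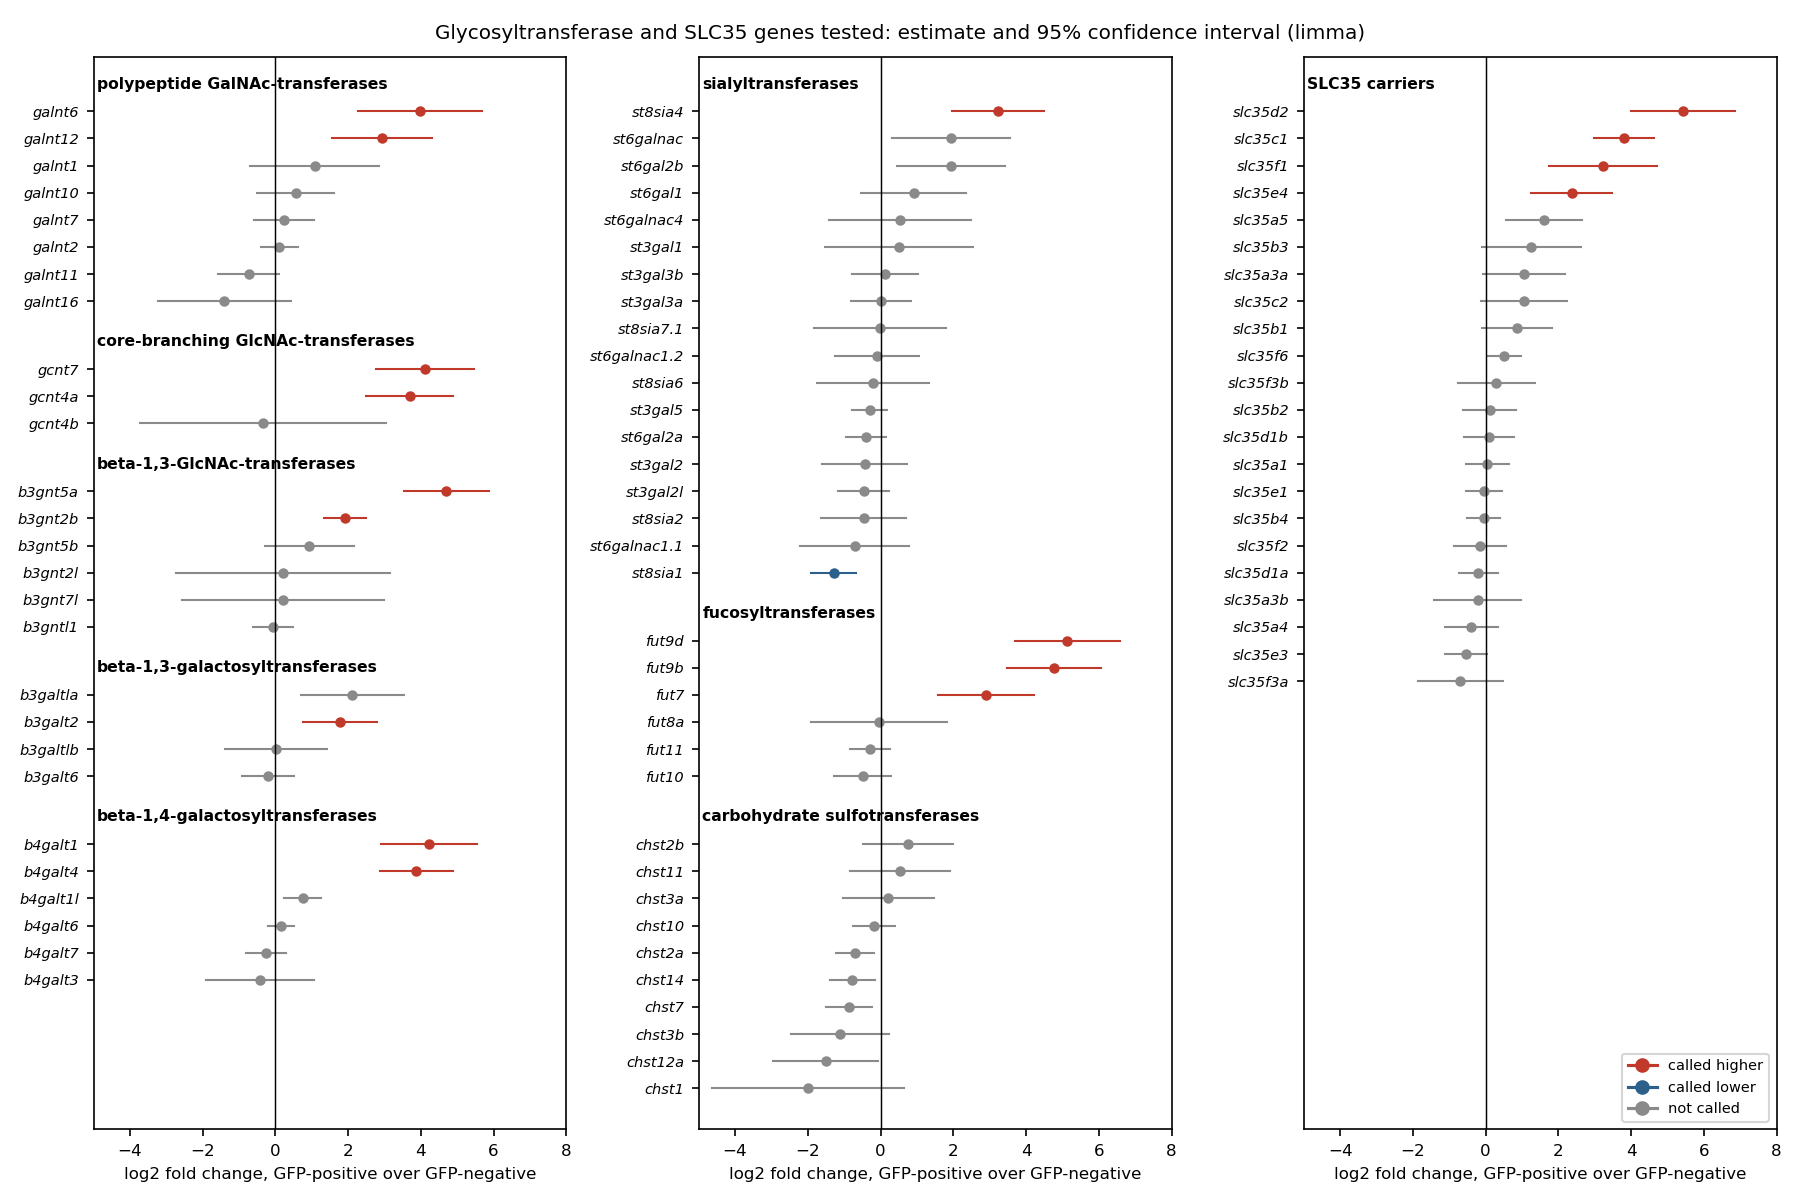
Log2 fold change of GFP-positive over GFP-negative cells with its 95% confidence interval (limma) for each of the 83 genes tested, grouped by class, with red for called higher, blue for called lower and grey for not called. Every class but the carbohydrate sulfotransferases has at least 1 red point, and 7 of the 10 sulfotransferases have an estimate below 0.

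The called genes kept their values apart in every library. In all 17 the lowest GFP-positive library was above the highest GFP-negative one. The calls were made from these same libraries and favour such genes, so the split is no further evidence for the calls. For slc35f1 and st8sia4, with all GFP-negative values under 10, the minimum of the test alone required the split. The mean of the GFP-negative libraries was 2.43% (slc35d2) to 29.1% (b3galt2) of the mean of the GFP-positive libraries, with a median of 6.55%. The same share was 1.89% to 11.0%, with a median of 3.21%, over the 15 EVL markers, and GFP-negative libraries therefore held reads of EVL markers as well. GFP-positive replicate 1 had the highest value in 14 of the 17 genes and replicate 2 in 3, and among all 1405 genes called higher replicate 1 was highest in 1206. The median ratio of replicate 1 to replicate 3 was 2.86 over the 17 genes and 2.66 over the 1405. Without this library 15 of the 17 genes were still called.

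**Figure D3:**
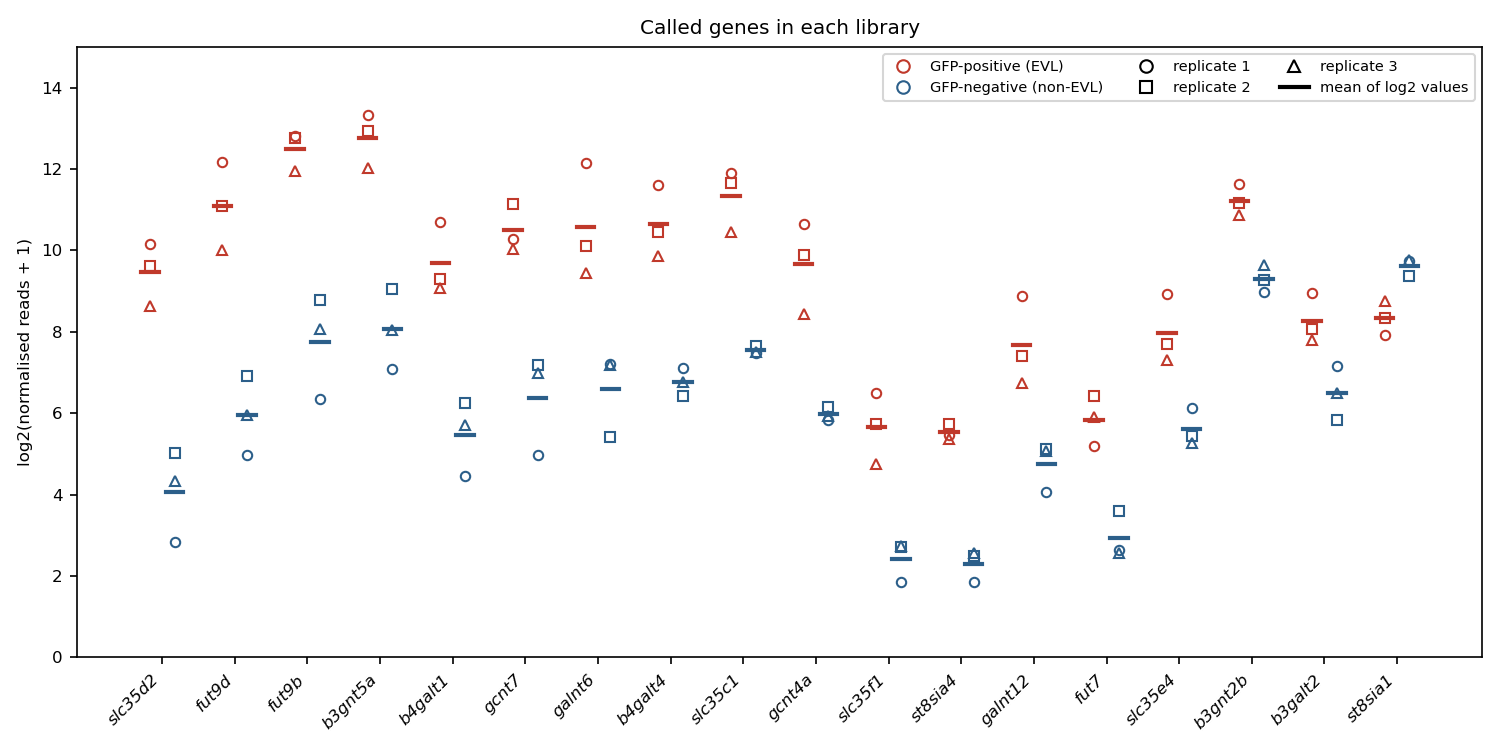
Log2(normalised reads + 1) of the 18 called genes in each library, with GFP-positive (red) left of GFP-negative (blue), symbols for the replicates and bars for the mean of the log2 values. The groups do not overlap in any of the 18, GFP-positive replicate 1 (circle) is the highest red point in most, and st8sia1 is the only gene with the blue points on top.

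The first step of mucin-type O-glycosylation is catalysed by the polypeptide GalNAc-transferases. Of 17 genes in this class 8 passed the minimum, and 2 were higher in GFP-positive cells while 0 were lower (limma; 0 at an unadjusted p under 0.05 in that direction, and 0 with edgeR and DESeq2). The shares of all genes tested, 8.80% higher and 0.676% lower, stand beside this count and the class counts below. The class median was 0.39. The gene galnt6 (ENSDARG00000014386) had 4562.5, 1104 and 696 normalised reads in the GFP-positive libraries, against 146, 41.3 and 144 in the GFP-negative libraries. The lowest GFP-positive value was several times the highest GFP-negative one, but the GFP-positive libraries differed widely among themselves. The change was 15.7-fold (log2 fold change 3.98, SE 0.74, adjusted p = 0.0118; limma), and it became 3.18 on the log2 scale when GFP-positive replicate 1 was left out and 3.38 when GFP-negative replicate 2 was. The gene galnt12 (ENSDARG00000055490) had 473, 168 and 106 normalised reads in the GFP-positive libraries, against 15.6, 34.0 and 32.4 in the GFP-negative libraries. It too was higher in every GFP-positive library (log2 fold change 2.93, SE 0.60, adjusted p = 0.0186; limma), with a log2 fold change of 2.32 without GFP-positive replicate 1 and an adjusted p of 0.0543 without GFP-positive replicate 2.

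Other genes of the class that were well detected were not called. The widely expressed galnt2 averaged 863 ± 142 normalised reads in EVL cells and 801 ± 129.9 in non-EVL cells (SD, n = 3 each), with a 95% interval of -0.39 to 0.61 for the log2 fold change. For galnt7, which prefers substrates that already carry GalNAc, the means were 699 ± 376 in EVL cells and 546 ± 60.1 in non-EVL cells, with an interval of -0.59 to 1.05. As a share of the reads of the class, galnt6 took 42.1% ± 16.9 in EVL cells and 5.42% ± 2.79 in non-EVL cells, and galnt2 took 23.9% ± 9.36 in EVL cells and 40.3% ± 5.98 in non-EVL cells (SD, n = 3 each). Such shares are of reads, not of molecules, because reads are not scaled for length. They also cover only the genes that the naming rule matched.

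The next steps make the core of the chain. The gene c1galt1b (ENSDARG00000055561, listed as c1galt1lb in the symbol table), of the family that adds galactose to form core 1, had 3737, 1165 and 1031 normalised reads in GFP-positive libraries, against 444, 416 and 307 in GFP-negative libraries (log2 fold change 2.099, SE 0.46, adjusted p = 0.0254; limma). Its chaperone c1galt1c1, known as Cosmc, without which core 1 synthesis fails in mammals, had 6725, 2406 and 1600.4 normalised reads in GFP-positive libraries, against 457, 441 and 321 in GFP-negative libraries (log2 fold change 2.88, SE 0.47, adjusted p = 0.00672; limma). Both genes were higher in every GFP-positive library, and replicate 1 stood far above the others. Without it their log2 fold changes were 1.51 and 2.29, and the call of c1galt1b was lost without GFP-negative replicate 2 (adjusted p = 0.0784, limma) or 3 (adjusted p = 0.101, limma). The third tested gene of that list, c1galt1a, was not called (log2 fold change -0.30, 95% interval -1.44 to 0.85). All mucin genes found in the files under the list's names (muc13b, muc5.1, muc5.2, muc5.3 and muc5f) were under the minimum.

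Branches are added by the core-branching GlcNAc-transferases of the GCNT family, of which 3 of 4 genes were tested and 2 were higher. In gcnt4a (ENSDARG00000035198), whose human counterpart makes core 2 branches, the GFP-positive libraries had 1611, 946 and 346 normalised reads, against 56.5, 69.8 and 59.9 in the GFP-negative libraries. The GFP-negative libraries were nearly level with each other and the GFP-positive ones spread several-fold. The difference was 12.9-fold (log2 fold change 3.69, SE 0.52, adjusted p = 0.00314; limma), with a log2 fold change of 4.30 without GFP-positive replicate 3. For gcnt7 (ENSDARG00000040608), a family member of less certain activity, the values were 1249.9, 2269 and 1051 in GFP-positive libraries, against 30.4, 144 and 126 in GFP-negative libraries (log2 fold change 4.11, SE 0.59, adjusted p = 0.00343; limma). Here GFP-positive replicate 2 was the highest, and without GFP-negative replicate 1 the log2 fold change was 3.41. The paralogue gcnt4b stayed low, at 9.22, 0 and 12.4 normalised reads in GFP-positive libraries, against 12.2, 0 and 19.7 in GFP-negative libraries, and was not called.

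Chains grow by alternating GlcNAc and galactose. Of 10 beta-1,3-GlcNAc-transferase genes 6 were tested and 2 were higher. The stronger of these 2 was b3gnt5a (ENSDARG00000018971), whose mammalian counterpart makes the lacto-series core of glycolipids. It had 10287, 7785 and 4189 normalised reads in the GFP-positive libraries, against 135, 531 and 262 in the GFP-negative libraries. The groups were far apart, with the lowest GFP-positive library well above the highest GFP-negative one, and the difference was 26.0-fold (log2 fold change 4.70, SE 0.50, adjusted p = 0.000941; limma). Its share of the reads of the class was 67.7% ± 5.48 in EVL cells and 18.3% ± 11.4 in non-EVL cells (SD, n = 3 each). The class left out family genes under capital names, so shares over the whole family would be smaller. Among those genes B3GNT8 (2 of 2), listed as si:dkey-160o24.3 in the symbol table, averaged 6132 normalised reads in EVL cells and 231 in non-EVL cells (log2 fold change 4.83).

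The second gene, b3gnt2b (ENSDARG00000091902), belongs to the B3GNT2 branch that extends poly-N-acetyllactosamine chains. Its values were 3154.5, 2303 and 1874 in GFP-positive libraries, against 506, 622 and 800.0 in GFP-negative libraries, and replicates lay close together in both groups. The change was smaller and more precise than that of b3gnt5a (log2 fold change 1.92, SE 0.25, adjusted p = 0.00235; limma). The uncalled genes with the highest values were b3gntl1, at 419.6 ± 86.9 normalised reads in EVL cells and 435 ± 32.3 in non-EVL cells (95% interval -0.62 to 0.48), and b3gnt5b, at 366.5 ± 218 in EVL cells and 185 ± 99.9 in non-EVL cells (95% interval -0.28 to 2.15).

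Galactose is added by beta-1,4- and beta-1,3-galactosyltransferases. Of 8 beta-1,4 genes 6 were tested and 2 were higher. The gene b4galt1 (ENSDARG00000002634), which makes N-acetyllactosamine on many glycans, had 1654, 626 and 540.2 normalised reads in GFP-positive libraries, against 20.9, 75.3 and 51.5 in GFP-negative libraries. The groups lay far apart and the GFP-negative values were low (18.6-fold, log2 fold change 4.22, SE 0.57, adjusted p = 0.00266; limma). For b4galt4 (ENSDARG00000104042), which makes the same linkage and acts on sulfated acceptors in mammals, the values were 3123, 1392 and 932 in GFP-positive libraries, against 138, 84.5 and 107 in GFP-negative libraries. It was 14.7-fold higher (log2 fold change 3.87, SE 0.44, adjusted p = 0.00117; limma). By contrast b4galt6 (ENSDARG00000010301, listed as B4GALT5 in the symbol table), of the branch that makes lactosylceramide, averaged 5113 ± 695 in EVL cells and 4593.5 ± 295 in non-EVL cells (SD, n = 3 each) and was not called (95% interval -0.21 to 0.51). The b4galt1 paralogue b4galt1l had 1062, 955.5 and 703 in GFP-positive libraries, against 548, 520.0 and 527 in GFP-negative libraries. Its groups did not overlap but it missed the call (adjusted p = 0.0743, limma), which it passed with DESeq2 and without GFP-positive replicate 3.

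Among the beta-1,3-galactosyltransferases 4 of 5 genes were tested and 1 was higher. That gene was b3galt2 (ENSDARG00000102061), whose human counterpart adds galactose to GlcNAc, with 493, 269 and 222 normalised reads in GFP-positive libraries, against 142, 56.0 and 88.8 in GFP-negative libraries. The groups did not overlap, but the call was close to the threshold (log2 fold change 1.78, SE 0.44, adjusted p = 0.0431; limma). It was lost without any 1 of the GFP-positive replicates 1, 2 and 3 or the GFP-negative replicates 2 and 3, at adjusted p-values of 0.121, 0.0947, 0.0516, 0.139 and 0.127 in that order (limma). It was also lost with total-read scaling (adjusted p = 0.0593, limma). The uncalled b3galt6, which acts on the linker of glycosaminoglycans, averaged 209 ± 51.2 in EVL cells and 241 ± 62.7 in non-EVL cells (95% interval -0.92 to 0.51). The genes b3galtla and b3galtlb are listed as B3GLCT, a glucosyltransferase, in the symbol table. Of the pair, b3galtla had 51.4, 19.9 and 36.1 normalised reads in GFP-positive libraries, against 10.4, 7.35 and 4.23 in GFP-negative libraries. Its groups did not overlap, but it was not called (log2 fold change 2.12, 95% interval 0.71 to 3.53, adjusted p = 0.0743; limma), while DESeq2 called it higher. The other gene, b3galtlb, averaged 76.2 ± 28.0 in EVL cells and 89.6 ± 66.0 in non-EVL cells and was not called (95% interval -1.39 to 1.41).

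Fucose caps were represented by 7 fucosyltransferase genes, of which 6 were tested and 3 were higher. The genes fut9b and fut9d belong to the FUT9 branch, which adds alpha-1,3-fucose and makes the Lewis x structure in mammals. The gene fut9d (ENSDARG00000028098) had 4581, 2184.5 and 1023 normalised reads in GFP-positive libraries, against 30.4, 119 and 61.3 in GFP-negative libraries. Every GFP-positive value was many times the highest GFP-negative one (35.2-fold, log2 fold change 5.14, SE 0.62, adjusted p = 0.00158; limma). For fut9b (ENSDARG00000067524, listed as fut9b.1 in the symbol table) the values were 7165, 6899.9 and 3969 in GFP-positive libraries, against 80.8, 439 and 269.9 in GFP-negative libraries (log2 fold change 4.77, SE 0.56, adjusted p = 0.00138; limma), and the log2 fold change was 4.07 without GFP-negative replicate 1. The symbol table lists further fut9b copies, and the treatment of 50-nt reads that match several copies was not given, so the values of single copies are uncertain.

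The third gene, fut7 (ENSDARG00000044775), whose mammalian counterpart completes sialyl Lewis x, was low. It had 35.6, 84.1 and 58.6 normalised reads in GFP-positive libraries, against 5.21, 11.0 and 4.93 in GFP-negative libraries, from 27, 76 and 52 reads in the GFP-positive libraries and 6, 12 and 7 in the GFP-negative libraries. Even so the groups did not overlap (log2 fold change 2.90, SE 0.57, adjusted p = 0.0151; limma), although the call was lost without GFP-positive replicate 2 (adjusted p = 0.0726, limma) or 3 (adjusted p = 0.0550, limma) and also when GFP-negative replicate 3 was left out (adjusted p = 0.0526, limma). The other tested genes of the class were not called. The gene fut11 averaged 905 ± 237 in EVL cells and 1086 ± 135 in non-EVL cells (95% interval -0.84 to 0.25), and fut10 averaged 104 ± 27.4 in EVL cells and 144 ± 24.2 in non-EVL cells (95% interval -1.27 to 0.30). The gene fut8a, which adds the core fucose of N-glycans, was low, at 12.3 ± 4.04 in EVL cells and 17.7 ± 19.3 in non-EVL cells (95% interval -1.92 to 1.83). By share, fut9b took 62.8% ± 5.13 of the reads of the class in EVL cells and 15.5% ± 8.43 in non-EVL cells, while fut11 took 10.4% ± 4.99 in EVL cells and 69.1% ± 5.57 in non-EVL cells (SD, n = 3 each). The summed reads of the class were 6103 to 12584 in GFP-positive libraries and 1305 to 1942 in GFP-negative libraries.

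Sialyltransferases formed the largest transferase class, and most of its genes were not called. Of 30 genes 18 were tested, 1 was higher and 1 was lower, and the class median was -0.05, which turned to 0.09 without GFP-negative replicate 3, and to 0.06 or 0.00496 when GFP-positive replicate 2 or replicate 1 was the one left out. Summed reads of the class overlapped between groups, at 3923 to 4749 in GFP-positive libraries and 3962 to 6336 in GFP-negative libraries. The gene called lower was st8sia1 (ENSDARG00000098221), which makes the ganglioside GD3 in mammals. It had 239.7, 321 and 433 normalised reads in the GFP-positive libraries, against 858, 659.6 and 864 in the GFP-negative libraries. Each GFP-positive library was below each GFP-negative one (log2 fold change -1.29, SE 0.27, adjusted p = 0.0208; limma). The call was lost without GFP-positive replicate 2 (adjusted p = 0.0679, limma), GFP-negative replicate 1 (adjusted p = 0.0586, limma) or GFP-negative replicate 3 (adjusted p = 0.0967, limma).

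The gene called higher was st8sia4 (ENSDARG00000103600), a polysialyltransferase that in mammals acts on the adhesion molecule NCAM. It had 43.5, 52.0 and 40.6 normalised reads in GFP-positive libraries, against 2.61, 4.59 and 4.93 in GFP-negative libraries, from 33, 47 and 36 reads in the GFP-positive libraries and 3, 5 and 7 in the GFP-negative libraries. The gene was low in both groups, and its GFP-positive libraries lay close together (log2 fold change 3.23, SE 0.55, adjusted p = 0.00756; limma). Its GFP-negative values were all under 10, so the minimum of the test admitted it only with every GFP-positive library above them. The ganglioside GM3 synthase st3gal5 averaged 1047 ± 85.9 in EVL cells and 1302 ± 301 in non-EVL cells (95% interval -0.77 to 0.19). The alpha-2,6-sialyltransferase st6gal2a averaged 746 ± 79.2 in EVL cells and 1006 ± 289 in non-EVL cells (95% interval -0.95 to 0.15). Neither was called, and st6gal2a had its GFP-positive libraries below its GFP-negative ones without overlap. That split was a near tie, with a highest GFP-positive value of 800.8 and a lowest GFP-negative value of 801.4. Of the 18 estimates 10 were below 0. The highest uncalled ones were st6galnac and st6gal2b, both at a log2 fold change of 1.93 (adjusted p = 0.146 and 0.117 in that order, limma). The gene st6galnac averaged 788 ± 142 in EVL cells and 319 ± 364 in non-EVL cells with overlap, and st6gal2b 76.0 ± 47.2 and 17.3 ± 8.48 without overlap.

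Carbohydrate sulfotransferases, which transfer sulfate from the donor PAPS to sugars, were the only class with 0 calls in either direction among 10 genes tested of 12 (limma). Of all genes tested 9.47% were called in either direction, so 0 of 10 does not by itself set the class apart. The class median was -0.74, and 7 of the 10 estimates were below 0. In 5 of the 10 genes (chst2a, chst7, chst14, chst3b and chst12a) every GFP-positive library was below every GFP-negative one, where 13.5% of all genes had such a split. For chst3b, with all GFP-positive values under 10, the minimum of the test alone required the split. In 1 gene, chst2b, every GFP-positive library was above every GFP-negative one, where 17.4% of all genes tested had such a split. Unadjusted p-values were under 0.05 for 4 genes with lower values and 0 with higher values. Under other settings edgeR called 0, DESeq2 called 2 lower (chst7 and chst14) and total-read scaling called 3 lower (chst2a, chst7 and chst14). The class median was -1.04 with total-read scaling, -0.69 with TMM scaling and -0.90 with the most abundant gene left out of the total.

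The uncalled sulfotransferases with the highest values were chst2a and chst7. The gene chst2a, whose mammalian counterpart sulfates GlcNAc, had 723, 636 and 971 normalised reads in GFP-positive libraries, against 1506.5, 1066 and 1182 in GFP-negative libraries (95% interval -1.22 to -0.17; adjusted p = 0.112, limma). The gene chst7 had 186, 287 and 266 in GFP-positive libraries, against 532, 373 and 442 in GFP-negative libraries (95% interval -1.50 to -0.24; adjusted p = 0.0967, limma). In both the groups stood apart, but by less than 2-fold in the fit, and neither passed the threshold. Summed reads of the class were 1692 to 2026 in GFP-positive libraries and 2295 to 3394 in GFP-negative libraries.

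The carriers that bring donors into the secretory pathway were the second largest class. Of 26 SLC35 genes 22 were tested, 4 were higher and 0 were lower (limma; 0 at an unadjusted p under 0.05 in that direction, and 0 with edgeR and DESeq2). The class median was 0.20 and turned to -0.10 with total-read scaling. The gene slc35d2 (ENSDARG00000089837), whose human counterpart carries UDP-GlcNAc, had 1138, 783 and 398 normalised reads in GFP-positive libraries, against 6.08, 31.2 and 19.0 in GFP-negative libraries. GFP-negative values were near the minimum of the test, far under every GFP-positive one. It was 42.7-fold higher (log2 fold change 5.42, SE 0.62, adjusted p = 0.00122; limma), the 25th highest log2 fold change of all genes tested, and 4.80 on the log2 scale without GFP-negative replicate 1. The gene slc35c1 (ENSDARG00000104669), the Golgi GDP-fucose carrier, had 3855, 3247 and 1406 in GFP-positive libraries, against 177, 200.3 and 179.7 in GFP-negative libraries. GFP-negative replicates were nearly level with each other, and the difference was 14.0-fold (log2 fold change 3.80, SE 0.36, adjusted p = 0.000674; limma).

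The other called carriers have no firmly established substrate. The gene slc35e4 (ENSDARG00000009459) had 486, 206 and 158 normalised reads in GFP-positive libraries, against 68.6, 42.3 and 37.4 in GFP-negative libraries (log2 fold change 2.37, SE 0.48, adjusted p = 0.0181; limma). Its call was lost without GFP-positive replicate 2 (adjusted p = 0.05002, limma), GFP-negative replicate 2 (adjusted p = 0.0699, limma) or GFP-negative replicate 3 (adjusted p = 0.0737, limma). The gene slc35f1 (ENSDARG00000053003) was low, at 89.6, 52.0 and 25.9 in GFP-positive libraries, against 2.61, 5.51 and 5.64 in GFP-negative libraries, from 68, 47 and 23 reads in the GFP-positive libraries and 3, 6 and 8 in the GFP-negative libraries (log2 fold change 3.23, SE 0.65, adjusted p = 0.0163; limma). The groups were apart, which the minimum of the test required because its GFP-negative values were all under 10. The call was lost without GFP-positive replicate 1 (adjusted p = 0.0727, limma) or 2 (adjusted p = 0.0651, limma). The uncalled carriers with the highest values were slc35b4 and slc35d1a. For slc35b4, which carries UDP-xylose in mammals, the means were 1355 ± 163 in EVL cells and 1419.6 ± 253 in non-EVL cells (95% interval -0.51 to 0.39). For slc35d1a, of the branch that carries donors of chondroitin, they were 911 ± 217 in EVL cells and 1039 ± 199 in non-EVL cells (95% interval -0.74 to 0.35).

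Carriers and transferases depend on donors, so the genes that make each donor were set beside them. Over the list of nucleotide sugar and PAPS supply, 8 of 35 genes tested (22.9%) were higher and 0 were lower, with a median of 0.71 (limma; 0 lower also at an unadjusted p under 0.05 and with edgeR and DESeq2). Of all genes tested 8.80% were higher and 0.676% lower, so the absence of lower calls among 35 genes says little. For GDP-fucose, gmds, which takes the first step from GDP-mannose, had 31194, 15915 and 10481 normalised reads in GFP-positive libraries, against 1129, 1330.3 and 1354 in GFP-negative libraries (log2 fold change 3.77, SE 0.35, adjusted p = 0.000673; limma). The gene listed as TSTA3 (2 of 3), of the enzyme that completes GDP-fucose, had 29634, 15695 and 9527 in GFP-positive libraries, against 509, 738 and 675 in GFP-negative libraries (log2 fold change 4.70, SE 0.38, adjusted p = 0.000647; limma). In both every GFP-positive library was far above every GFP-negative one, and gmppb, which makes GDP-mannose, was higher as well (log2 fold change 2.58, adjusted p = 0.0144; limma). The name TSTA3 (2 of 3) counts 3 copies, and the other copies are not described here. The salvage enzyme fpgt was higher (log2 fold change 3.498, SE 0.90, adjusted p = 0.0476; limma). It had 252, 48.7 and 28.2 normalised reads in GFP-positive libraries, against 7.82, 1.84 and 9.16 in GFP-negative libraries. With these GFP-negative values all under 10, the minimum of the test required the groups of fpgt to stand apart. Its call was close to the threshold, and results under the alternatives are not given for it. The synthesis genes named here, the carrier slc35c1 and 3 transferases of the GDP-fucose route were thus called higher, but only called synthesis genes were named. The supply list also held mpi, pmm1, pmm2, gmppaa, gmppab and fuk (fcsk). Those of them found in the files were not among its 8 called genes. Not called were a second gene of the carrier's subfamily, slc35c2 (log2 fold change 1.05, adjusted p = 0.270; limma), the transferases fut8a, fut10 and fut11 (log2 fold changes -0.04, -0.49 and -0.29 in that order), and pofut1 (log2 fold change -0.04) and pofut2 (log2 fold change -0.42), which put fucose directly on protein.

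For UDP-GlcNAc, the rate-limiting enzymes of the hexosamine route were higher. The gene gfpt2 had 1968, 1128 and 707 normalised reads in GFP-positive libraries, against 50.4, 47.8 and 50.7 in GFP-negative libraries (log2 fold change 4.52, SE 0.38, adjusted p = 0.000647; limma). For gfpt1 the values were 608.5, 376 and 305 in GFP-positive libraries, against 18.2, 57.0 and 42.3 in GFP-negative libraries (log2 fold change 3.502, SE 0.48, adjusted p = 0.00282; limma). The last enzyme of the route, uap1, was higher too (log2 fold change 3.47, adjusted p = 0.00260; limma), at 2.87 on the log2 scale without GFP-positive replicate 1. The steps between were not called, with gnpnat1 at a log2 fold change of 2.11 (adjusted p = 0.0672, limma) and pgm3 at one of -0.32 (adjusted p = 0.620, limma). Nor was uap1l1, a relative of uap1 (log2 fold change 0.71, adjusted p = 0.411; limma). Among the genes grouped here as carriers of this donor slc35d2 was higher, as given above. The grouping need not be complete, and slc35b4, left out of it, was not called (log2 fold change -0.06). The carriers slc35a3a (log2 fold change 1.05, adjusted p = 0.253; limma) and slc35a3b (log2 fold change -0.22, adjusted p = 0.850; limma) were not called.

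The other donors follow, and values in parentheses in the next sentences are log2 fold changes. Numbers of calls cannot be compared with those of GDP-fucose, for which only called synthesis genes were named. For UDP-galactose, galk1 (1.87), galt (0.25) and gale (0.95) were not called, whereas the carrier, which the files list under the capital name SLC35A2, was higher (log2 fold change 2.34, adjusted p = 0.00192; limma). For CMP-sialic acid, none of gne (-0.42), nansa (0.07), nanp (0.20), cmasa (0.51) and the carrier slc35a1 (0.05) was called. For PAPS, papss2b had 5638.5, 2552 and 2311 normalised reads in GFP-positive libraries, against 651, 187 and 355 in GFP-negative libraries (log2 fold change 3.19, SE 0.49, adjusted p = 0.00465; limma). Its paralogue papss2a, low in both groups (-1.41), papss1 (-0.62) and the carriers slc35b2 (0.11) and slc35b3 (1.26) were not called. The highest uncalled gene of the supply list was ugdh, which makes UDP-glucuronic acid, at 3546.5 ± 887 in EVL cells and 3637 ± 444 in non-EVL cells (95% interval -0.56 to 0.44). The grouping of genes by donor was drawn up after their values were seen.

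**Figure D4:**
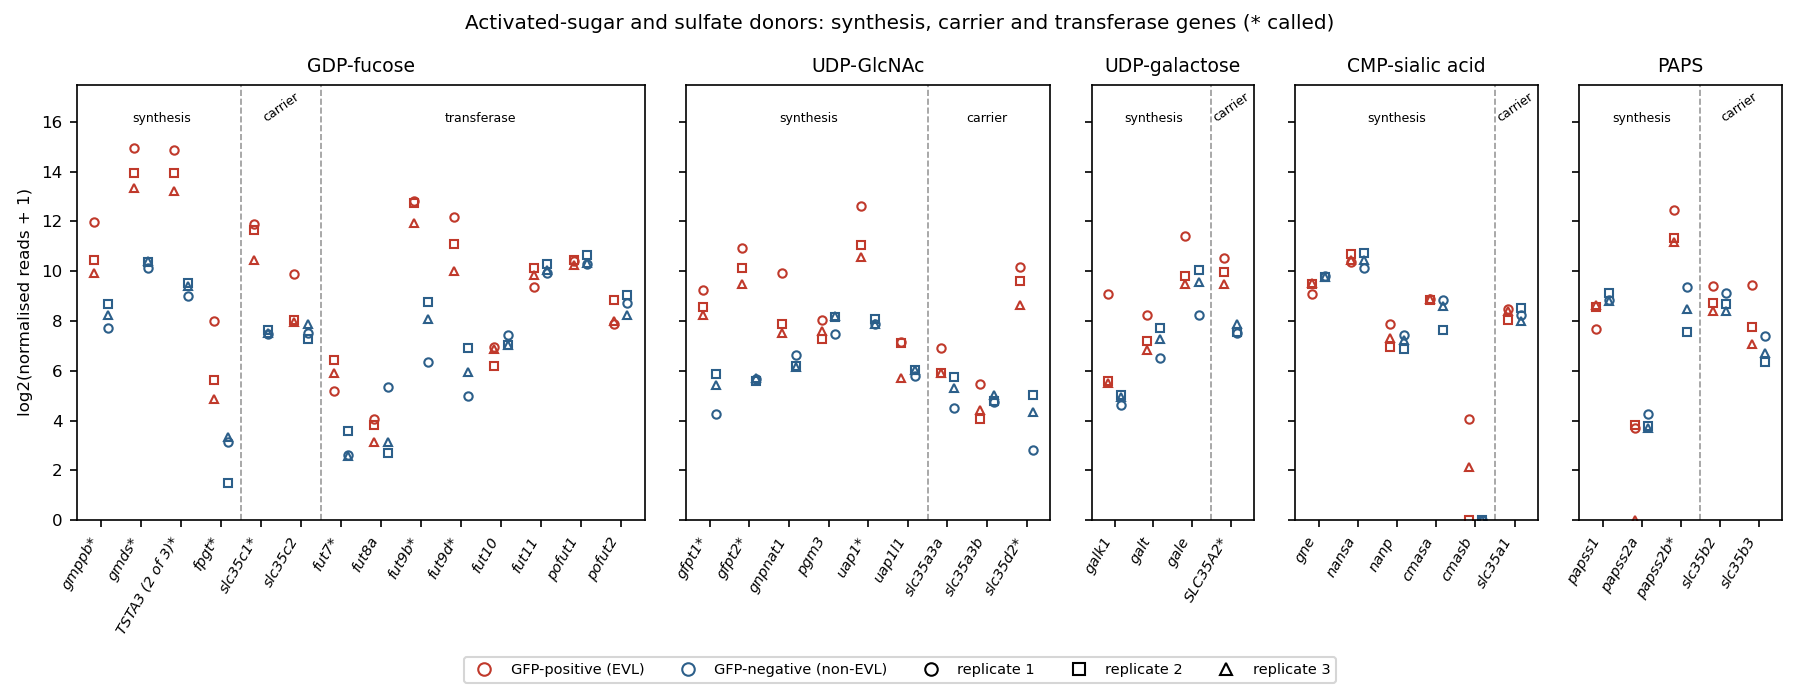
Log2(normalised reads + 1) in each library for genes of 5 donor routes, with GFP-positive (red) left of GFP-negative (blue), symbols for replicates and an asterisk for a call. Genes are divided into synthesis and carrier, and transferases are shown for GDP-fucose only. The GDP-fucose panel shows only those synthesis genes that were called. Red points stand clear above blue ones for gmds, TSTA3 (2 of 3) and slc35c1 in the GDP-fucose panel and for gfpt2, uap1 and slc35d2 in the UDP-GlcNAc panel. The groups lie closer together in the CMP-sialic acid panel for all but cmasb, which was under the minimum of the test. Within that panel the groups do not overlap for gne, with red below blue, and for cmasa, with red narrowly above blue.

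Paralogues allowed a comparison within libraries, since their log2 ratio hardly depends on the scaling of a library. In 14 pairs of tested genes with a shared name stem, the log2 ratio of the first to the second gene was compared between groups with an exact two-sided permutation test, whose smallest possible p is 0.1 with 3 libraries a group. The log2 ratio of b3gnt5a to b3gnt5b was 4.42 ± 0.96 in GFP-positive libraries and 0.65 ± 1.71 in GFP-negative libraries (SD, n = 3 each; exact permutation p = 0.1). For b4galt1 to b4galt1l it was -0.12 ± 0.66 in GFP-positive libraries and -3.58 ± 0.97 in GFP-negative libraries (SD, n = 3 each; exact permutation p = 0.1). Ratios also stood apart for slc35a3a to slc35a3b, chst2a to chst2b and st6gal2a to st6gal2b, with differences of GFP-positive minus GFP-negative means of 1.27, -1.44 and -2.33 in that order (exact permutation p = 0.1 each). Because the smallest possible p of 0.1 is above the threshold used for calls, no pair could have passed, with or without adjustment over the 14 pairs. The smallest Benjamini-Hochberg value was 0.28, and the test cannot decide whether any of these ratios differed between groups. The ratio of fut9b to fut9d, both called, was 1.42 ± 0.69 in GFP-positive libraries and 1.79 ± 0.38 in GFP-negative libraries (SD, n = 3 each; exact permutation p = 0.6).

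**Figure D5:**
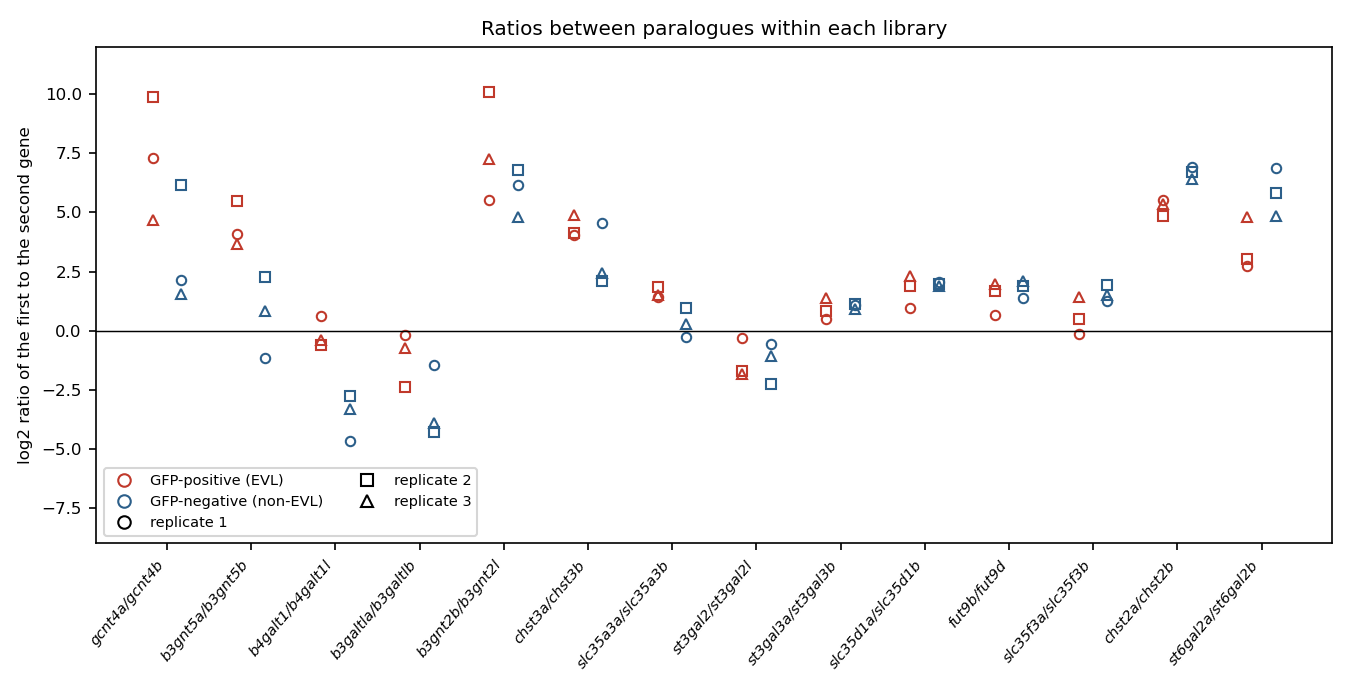
Log2 ratio of the first to the second gene of 14 paralogue pairs in each library, with GFP-positive (red) left of GFP-negative (blue) and symbols for replicates. The red points lie above all blue points for b3gnt5a/b3gnt5b, b4galt1/b4galt1l and slc35a3a/slc35a3b and below them for chst2a/chst2b and st6gal2a/st6gal2b, while other pairs overlap.

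Neighbouring glycosylation pathways were counted from lists of their known genes. Over 8 such lists, 160 genes were tested and 16 were higher (limma), with the supply and core 1 genes above among them, a share close to the 8.80% of all genes tested. In N-glycan processing 3 of 15 genes tested were higher, with a median of 0.35. The mannosidase man2a1 had 1674, 738 and 677 normalised reads in GFP-positive libraries, against 129, 134 and 168 in GFP-negative libraries (log2 fold change 2.71, SE 0.37, adjusted p = 0.00264; limma). The GlcNAc-transferase mgat1a (log2 fold change 1.73) and the glucosidase mogs (log2 fold change 1.89) were higher at adjusted p-values of 0.0188 and 0.0304 (limma). The call of mgat1a was lost when GFP-positive replicate 2 or either of the GFP-negative replicates 2 and 3 was left out (adjusted p 0.0554, 0.0699 and 0.0766 in that order, limma). That of mogs was lost when 1 of the GFP-positive replicates 1 and 2 or the GFP-negative replicates 1 and 3 was left out (adjusted p 0.0779, 0.0857, 0.0776 and 0.108 in that order, limma). The glucosidase subunit ganabb was not called (log2 fold change -0.06).

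Glycolipid synthesis had 2 of 8 genes higher (25.0%), where 8.80% of all genes tested were. Its median of 0.09 turned to -0.21 with total-read scaling and -0.07 with the most abundant gene left out of the total. The gene gbgt1l4, of the family of the Forssman synthase, had 15288, 7143.5 and 4529 normalised reads in GFP-positive libraries, against 187, 447 and 648 in GFP-negative libraries (log2 fold change 4.38, SE 0.54, adjusted p = 0.00163; limma). For ugt8, which makes galactosylceramide, the values were 864, 220.3 and 129 in GFP-positive libraries, against 15.6, 10.1 and 7.05 in GFP-negative libraries (log2 fold change 4.68, SE 0.70, adjusted p = 0.00416; limma). The log2 fold change of ugt8 was 3.89 without GFP-positive replicate 1 and 5.26 without GFP-positive replicate 3. The glucosylceramide synthase ugcg was not called (log2 fold change 0.33, 95% interval -0.25 to 0.92).

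The remaining pathways held 1 call, where 9.47% of all genes tested were called in 1 direction or the other. In the list of oligosaccharyltransferase and dolichol genes, which build and transfer the N-glycan precursor, 1 of 33 genes was higher, with a median of 0.51, and DESeq2 called 4 higher. That gene was the mannosyltransferase alg9 (log2 fold change 2.43, adjusted p = 0.0158; limma), whose call was lost without GFP-positive replicate 2 (adjusted p = 0.0578, limma) or GFP-negative replicate 2 (adjusted p = 0.0515, limma). The highest uncalled gene of that list was rpn1 (log2 fold change -0.19). Of 35 glycosaminoglycan genes 0 were called (limma), with a median of 0.06, 4 lower and 1 higher at an unadjusted p under 0.05, and 3 called lower by DESeq2 and 0 by edgeR. Of 22 genes for O-linked mannose, fucose and GlcNAc 0 were called (limma), with a median of -0.40, 4 lower and 0 higher at an unadjusted p under 0.05, and 1 called lower by DESeq2 and 0 by edgeR. Of 9 sialidases and galectins 0 were called (limma), with a median of 0.15, 1 higher and 0 lower at an unadjusted p under 0.05, and 1 called higher by DESeq2 and 0 by edgeR. The genes with the highest values in these lists were hs6st2, lfng and lgals3, at log2 fold changes of -0.03, -0.06 and 0.15 in that order, and none was called. The median turned below 0 for glycosaminoglycan genes with total-read scaling (-0.25), with the most abundant gene left out of the total (-0.11), with DESeq2 (-0.02) and without GFP-negative replicate 2 (-0.17), GFP-negative replicate 3 (-0.13) or GFP-positive replicate 1 (-0.08). It also did so for sialidases and galectins with total-read scaling (-0.16) and with that gene left out of the total (-0.02).

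The 36 genes under the minimum were mostly silent or nearly so. In 23 of them all 6 values were under 10, the highest single value was 46.1, and chst12b was at 0 in every library. They included 9 GalNAc-transferases (galnt13 and galnt14 among them), 12 sialyltransferases, 4 beta-1,3-GlcNAc-transferases and 4 SLC35 carriers. In 4 of the 36 every GFP-positive library was above every GFP-negative one. Of all genes tested 17.4% had such a split, but those passed the minimum and are not a like set. Of these 4, b3gnt3 had 46.1, 26.6 and 5.64 normalised reads in GFP-positive libraries, against 1.74, 5.51 and 4.93 in GFP-negative libraries. The others were b4galt5, with 34.2, 9.96 and 10.2 in GFP-positive libraries, against 3.48, 0 and 2.11 in GFP-negative libraries, and st3gal5l and st8sia5, whose values were all under 6. In 1 every GFP-positive library was below every GFP-negative one, where 13.5% of all genes tested, again not a like set, had that split. It was st6galnac3, at 0, 0 and 0 in GFP-positive libraries, against 4.34, 1.84 and 4.23 in GFP-negative libraries. These are low counts, and no test was made of them.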

How the data were processed

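RNA from 3 GFP-positive and 3 GFP-negative sorted-cell samples was amplified with SMARTseq2 and read as 50-nt single ends, per the labels' protocols. Trim Galore, STAR 2.6.1d, danRer10, featureCounts and DESeq2 are named in the submitters' processing notes. Other versions, the annotation release, strand use in counting and the handling of multiply matched reads are not given in the sources used here. Because SMARTseq2 marks neither strand nor molecules, values of genes with antisense partners or near-identical copies are uncertain, and precision from depth covers counting error only. The deposited values were a signal per gene, normalised by the authors, in which each value was a whole read count divided by the size factor of its library. Whole reads came back for 100% of values within 0.01 read, and edgeR on them called 1409 genes higher and 54 lower.

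Of 31953 genes, 6090 were at 0 in every library, and 15971 that reached a value of 10 in 3 or more libraries were tested. The test was limma 3.58.1 (R 4.3.3) on log2(value + 1) with group as the term, a mean-variance trend, robust shrinkage and Benjamini-Hochberg adjustment, with calls at an adjusted p under 0.05, and it was tested on simulated data. Alternatives used edgeR 4.0.16, DESeq2 1.42.0, limma-voom, other pseudocounts, filters and scalings, a replicate block and each library left out. No replicates were duplicates (chi-square per degree of freedom 32.5 to 185 between pairs).

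Genes were matched by the names in the files, and 114 of 119 identifiers had an entry in the symbol table. Pathway and marker lists came from general knowledge, with 259 of 285 entries found. The genes and lists were chosen with earlier results of these data known. Named genes were all called genes, the 2 uncalled genes of each class with the highest mean, and for each other list up to 4 called genes with the smallest adjusted p and the uncalled gene with the highest mean. Others (gfpt1, gmppb, fpgt, papss2b, pofut1, pofut2, the uncalled donor genes, the paralogue pairs, b3galtla, chst3b, chst12a, chst14, fut8a, slc35c2, st6galnac, the markers, the genes under the minimum and those in other observations) were named after their values were seen.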

Additional observations from a re-analysis of the deposited data

How the results depend on the processing

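Of the 18 called genes, 12 kept their call under every alternative in which they were tested and 6 lost it under at least 1 (b3galt2, fut7, galnt12, slc35e4, slc35f1 and st8sia1), each with its values in the report, and no called gene changed sign. The number of listed genes called higher was 14 with a minimum value of 50 (fut7, st8sia4 and slc35f1 then go untested), 16 with total-read scaling, 21 with DESeq2 and 12 to 18 with 1 library left out (12 without GFP-positive replicate 2). The number called lower was 4 with total-read scaling, 3 with DESeq2 and 0 to 1 with 1 library left out. The count of all genes called lower was 108, against 1191 with total-read scaling, 62 with TMM, 174 with the most abundant gene left out of the total, 54 with edgeR, 333 with DESeq2, 41 with limma-voom and 14 to 77 with 1 library left out. The median log2 fold change of the listed genes was -0.18 with total-read scaling and -0.0426 with that gene left out of the total, where the median of all genes was -0.36 and -0.22. Relative to all genes both stood higher, and the cause of the changes in counts was not tested.

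With names also matched ignoring case 21 listed genes were called higher. With symbol table names added, a choice made after seeing the data, 27 of 101 tested (26.7%) were called higher, with a median of 0.295. Of all genes tested 8.80% were called higher. With the replicate number as a block, 18 listed genes were called higher (slc35a5 in addition) and 1 lower, and all genes called lower were 279, against 108 without it. Deviations of same-numbered libraries from their group means correlated at 0.259, 0.328 and 0.0748, and every library correlated best with its own number, which is a hint from the data and not from the design. Of the 25 uncalled genes that the naming rule chose, 12 changed sign under at least 1 alternative and 3 (b4galt1l, chst2a and chst7) were called under at least 1. Of the other uncalled listed genes named, chst14, b3galtla, st6gal2b and slc35a5 were called by DESeq2, and also with total-read scaling (chst14), without GFP-positive replicate 3 (st6gal2b) and with the block (slc35a5). The gene st6galnac was called higher only without GFP-negative replicate 1. With 3 libraries a group and GFP-positive values that spread several-fold, a gene without a call cannot be read as equal between groups.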

Other observations

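Further genes of the same families stand in the files under capital or clone names and were left out by the naming rule. Their values were seen before they were named here. Of 17 genes with capital names 7 were tested and 4 (57.1%) were higher in GFP-positive cells, where 8.80% of all genes tested were. B3GNT8 (2 of 2), which the symbol table lists only under the clone name si:dkey-160o24.3, had 7687, 7153.5 and 3555 normalised reads in GFP-positive libraries, against 118, 398 and 176 in GFP-negative libraries (log2 fold change 4.83, SE 0.46, adjusted p = 0.000674; limma). SLC35A2, the UDP-galactose carrier, had 1479, 994 and 724 in GFP-positive libraries, against 182, 186 and 238 in GFP-negative libraries (log2 fold change 2.34, SE 0.30, adjusted p = 0.00192; limma). Both genes were higher in every GFP-positive library. B3GNT3 (1 of 4) had 1775.5, 262 and 255 in GFP-positive libraries, against 35.6, 4.59 and 11.3 in GFP-negative libraries (log2 fold change 5.18, SE 0.91, adjusted p = 0.00900; limma), with log2 fold changes of 4.25, 5.89 and 4.54 without GFP-positive replicate 1, GFP-negative replicate 1 and GFP-negative replicate 2, and it was not called by limma-voom (adjusted p = 0.0680). B3GNT3 (4 of 4) was higher by 2.86 on the log2 scale (adjusted p = 0.0111; limma).

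Of 23 genes that only the symbol table places in these families, 11 were tested and 6 (54.5%) were higher (limma), where 8.80% of all genes tested were. The gene listed as b3galt10.2 in the symbol table had 1123.5, 616 and 354 normalised reads in GFP-positive libraries, against 21.7, 11.0 and 31.0 in GFP-negative libraries (log2 fold change 4.93, SE 0.53, adjusted p = 0.000941; limma). The gene zgc:112433, listed as fut9b.6, had 90.9, 69.8 and 46.2 in GFP-positive libraries, against 0, 1.84 and 3.52 in GFP-negative libraries (log2 fold change 4.85, SE 0.74, adjusted p = 0.00443; limma), and its log2 fold change was 4.24 without GFP-negative replicate 1. In both the groups did not overlap, which the minimum of the test required for zgc:112433, whose GFP-negative values were all under 10. The gene poc1bl, listed as GALNT4, was higher by 4.03 on the log2 scale (adjusted p = 0.0126; limma), and by 3.34 when GFP-positive replicate 1 was left out and 3.37 when GFP-negative replicate 2 was. The gene zgc:194330, listed as b3galt10.1, was higher by 3.57 (adjusted p = 0.0195; limma), by 2.77 without GFP-negative replicate 1, and lost its call without GFP-positive replicate 2 (adjusted p = 0.0761, limma). The calls of ft1, listed as FUT9, and wbscr17, listed as GALNT17, at log2 fold changes of 4.18 and 3.87, were lost when any 1 library other than GFP-negative replicate 2 was left out, with adjusted p-values of 0.0581 to 0.158 for ft1 and 0.0520 to 0.144 for wbscr17 (limma). Both genes were low. GFP-positive libraries had 73.8, 15.5 and 30.5 normalised reads for ft1 and 30.3, 24.4 and 10.15 for wbscr17. GFP-negative libraries had 0, 5.51 and 0 for ft1 and 0, 1.84 and 0 for wbscr17. With these values all under 10, the minimum of the test required the groups to stand apart. The log2 fold change of ft1 was 5.08 without GFP-negative replicate 2, and its call was also lost with edgeR (adjusted p = 0.0805), limma-voom (adjusted p = 0.0509) and the replicate block (adjusted p = 0.0594, limma).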
